A study of Mus musculus with 36 samples.

Results

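Motile cilia of the lung are carried by the ciliated cells of the airway lining, and 10 genes used to recognise these cells were followed through the series: Foxj1, Rfx3, Tppp3, Tekt1, Tekt4, Rsph1, Dnah5, Dnah9, Spag17 and Hydin. The members were all probe sets that the platform annotation gives a single symbol among these 10, which made 14 of the 45037 probe sets tested. Rfx3, Dnah9, Spag17 and Hydin have more than 1 probe set, called set 1 and set 2 in numerical order. RNA from the left lung of 36 male mice, 7 to 13 weeks old, had been hybridized to Affymetrix mouse genome arrays with 1 mouse on each array. The mice were wild type (WT, B6129SF1/J), Notch3-/- or Notch4-/- (both tm1Grid alleles on a mixed strain background). Each line breathed filtered air, or ozone at 0.3 ppm over 6, 24 or 48 hr, and 3 mice made up each of 12 groups. The WT mice were F1 hybrids and the knockout lines were not, so that the deleted gene and the strain background cannot be told apart. The deletions are present in every cell, and each line has 1 air group for the 3 ozone times.

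Ciliated cells beat many motile cilia, which move mucus and inhaled particles out of the airways. Foxj1 and Rfx3 are transcription factors that switch on the genes of the motile cilium. The shaft of the cilium, the axoneme, is built of doublet microtubules, on which dynein arms produce the stroke, and of a central pair of microtubules that is touched by the radial spokes. Notch signaling between neighbouring airway cells steers progenitors toward secretory fates, and cells with little Notch signal become ciliated. Inhaled ozone is known to injure ciliated cells of the airways.

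All values were on the log2 scale and had a median of 0 for every probe set over the 36 arrays, so a value of 0.5 lies 0.5 log2 above that median. Levels can therefore be compared between mice for a given probe set, and not between genes. Both Notch3 probe sets were lower in Notch3-/- than in WT mice over all exposures, with differences of -2.32 and -3.94 (adjusted p = 1.6e-18 and 7.5e-20 in limma). Of the 3 Notch4 probe sets, those called differed by -3.75 and -0.74 in Notch4-/- mice (adjusted p = 1.6e-16 and 4.1e-08), and the other by -0.08 (adjusted p = 0.62). In 2 Notch4-/- mice after air the first of these was between the others, at -1.97 in replicate 1 and -1.40 in replicate 2 against -3.69 in replicate 3. Results that use these mice are given with and without both where the call changes. Since the centred values carry no brightness, it cannot be read whether any marker was absent. The ciliated cell label rests on the choice of genes, and the covariation described below is its only check. That check does not separate ciliated from club cells, whose genes followed the member mean with a correlation of 0.84. Goblet cell genes and cardiac muscle genes of the pulmonary vein followed it at 0.69 and 0.67. In whole lung, fewer ciliated cells and less RNA in each ciliated cell cannot be told apart, and the labels do not give the amount of airway in each sample.

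Promoter windows, the 250 bases upstream of the annotated start, were taken from RefSeq (GRCm38.p6) and matched 7 of the 10 members in 8 windows, for Spag17, Hydin, Dnah9, Tekt1, Dnah5, Tekt4 and Rfx3. They are shown because Rfx3 is a member, and Rfx proteins bind an inverted repeat, the X-box, of which GTTGC and its reverse complement GCAAC are core letters. Capitals mark GTTGC and GCAAC in the windows of Tekt4 (chr17:25471340-25471589, plus strand), Hydin (chr8:110266727-110266976, plus strand), Dnah9 (chr11:66168552-66168801, minus strand) and Tekt1 (chr11:72361883-72362132, minus strand, the first of its windows), each written 5′ to 3′.
Tekt4: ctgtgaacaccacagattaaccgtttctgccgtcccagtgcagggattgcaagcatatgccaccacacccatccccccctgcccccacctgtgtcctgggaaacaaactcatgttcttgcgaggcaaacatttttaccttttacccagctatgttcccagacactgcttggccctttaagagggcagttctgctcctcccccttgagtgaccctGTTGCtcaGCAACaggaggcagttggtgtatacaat
Hydin: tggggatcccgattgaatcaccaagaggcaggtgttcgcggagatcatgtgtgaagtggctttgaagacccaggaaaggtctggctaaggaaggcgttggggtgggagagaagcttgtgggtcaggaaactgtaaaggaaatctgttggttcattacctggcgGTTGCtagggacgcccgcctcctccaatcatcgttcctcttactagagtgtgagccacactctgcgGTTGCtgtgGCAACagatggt
Dnah9: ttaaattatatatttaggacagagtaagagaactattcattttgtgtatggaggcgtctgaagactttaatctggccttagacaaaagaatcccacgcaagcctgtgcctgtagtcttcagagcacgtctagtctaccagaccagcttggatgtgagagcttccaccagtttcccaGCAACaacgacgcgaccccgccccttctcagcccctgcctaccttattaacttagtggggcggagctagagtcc
Tekt1: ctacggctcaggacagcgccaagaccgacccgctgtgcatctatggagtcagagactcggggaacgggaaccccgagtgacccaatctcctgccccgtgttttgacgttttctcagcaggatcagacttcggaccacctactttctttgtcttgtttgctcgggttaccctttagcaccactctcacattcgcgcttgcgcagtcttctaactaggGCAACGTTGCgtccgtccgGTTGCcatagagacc
The letters GTTGC were found on either strand in 6 of the 8 member windows and in 29.9% of all 32851 windows of this length. The longer GTTNCC, which overlaps it in part, was also found in 6 of the 8 and in 39.4% of all. A facing pair, GTTNC followed by GNAAC with 3 or 4 bases between, was found in 3 of the 8 (Tekt4, Hydin and Dnah9) and in 1.67% of all. The forkhead core TGTTTA was found in 2 of the 8 and in 12% of all. These motifs were chosen after the sequences had been seen, and a match describes letters only.

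The members differed widely in how far they varied over the mice. The SD over the 36 mice was 0.74 for Spag17 set 1 and 0.45 for Foxj1 and for Dnah5, against a median SD of 0.19 over all probe sets. It was lowest for Hydin set 1, at 0.14, and was 0.18 for Dnah9 set 1 and for Rfx3 set 1. The sets of a gene did not always behave alike, since Dnah9 set 2 and Hydin set 2 had an SD of 0.40 and 0.36.

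Ozone lowered Tppp3, and no other member passed the test against air. Tppp3 encodes a tubulin polymerization-promoting protein found in ciliated cells. In WT mice its values were 0.47, 0.77 and 0.46 after air and -0.52, -0.59 and -0.37 after 24 hr of ozone. The 2 groups of mice did not overlap. The mean fell by 1.06 log2 (SE 0.18, adjusted p = 0.0047 in limma), which is 2.08-fold lower. After 48 hr the WT values were -0.42, -0.33 and -0.10, again all below the air mice, and the mean fell by 0.85 (SE 0.18, adjusted p = 0.0069). After 6 hr they were 0.52, 0.08 and 0.43, a difference of -0.22 that did not pass (adjusted p = 0.74). The share of all probe sets called lower in WT mice was 0.0111% at 24 hr and 0.495% at 48 hr. Both calls were lost without WT air replicate 2 (adjusted p = 0.06 at 24 hr and 0.059 at 48 hr), the first without WT ozone 24 hr replicate 2 (0.055) and the second without WT ozone 48 hr replicate 1 (0.052), both when only the arrays compared entered the fit (0.083 and 0.066), and both by Tukey's test adjusted over all probe sets (0.7 and 0.6).

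In Notch4-/- mice Tppp3 was 0.27, 0.11 and 0.47 after air, 0.22, 0.39 and 0.22 after 6 hr, 0.02, -0.56 and -0.51 after 24 hr and -0.18, -0.13 and -0.68 after 48 hr. The 24 and 48 hr mice all lay below the air mice, and the differences of -0.63 and -0.61 missed the threshold (adjusted p = 0.067 and 0.078). Without the Notch4-/- air replicates 1 and 2 the 24 hr difference was -0.82 and passed (adjusted p = 0.046), with 1 air mouse left whose spread is taken from the other groups. It passed too without Notch4-/- air replicate 2 alone (adjusted p = 0.038) and without ozone 24 hr replicate 1 (adjusted p = 0.028). In Notch3-/- mice Tppp3 was -0.15, 0.15 and 0.07 after air, -0.07, -0.13 and -0.18 after 24 hr and 0.08, -0.23 and -0.79 after 48 hr. These groups overlapped, with differences of -0.15 and -0.34 (adjusted p = 0.69 and 0.45).

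Over the 3 genotypes together Tppp3 lay between -0.15 and 0.77 in the 9 air mice (median 0.27), between -0.02 and 0.52 after 6 hr (median 0.22), between -0.59 and 0.02 after 24 hr (median -0.37) and between -0.79 and 0.08 after 48 hr (median -0.23). Against air, the mean over the genotypes fell by 0.61 at 24 hr (SE 0.10, adjusted p = 0.00045) and by 0.60 at 48 hr (SE 0.10, adjusted p = 0.00016), and against 6 hr it fell by 0.57 at 24 hr (adjusted p = 0.00046). All 3 calls held without each of the 18 arrays compared in turn. At 6 hr the difference from air was -0.04 (adjusted p = 0.85), so the lower level was seen from 24 hr on.

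**Figure D1:**
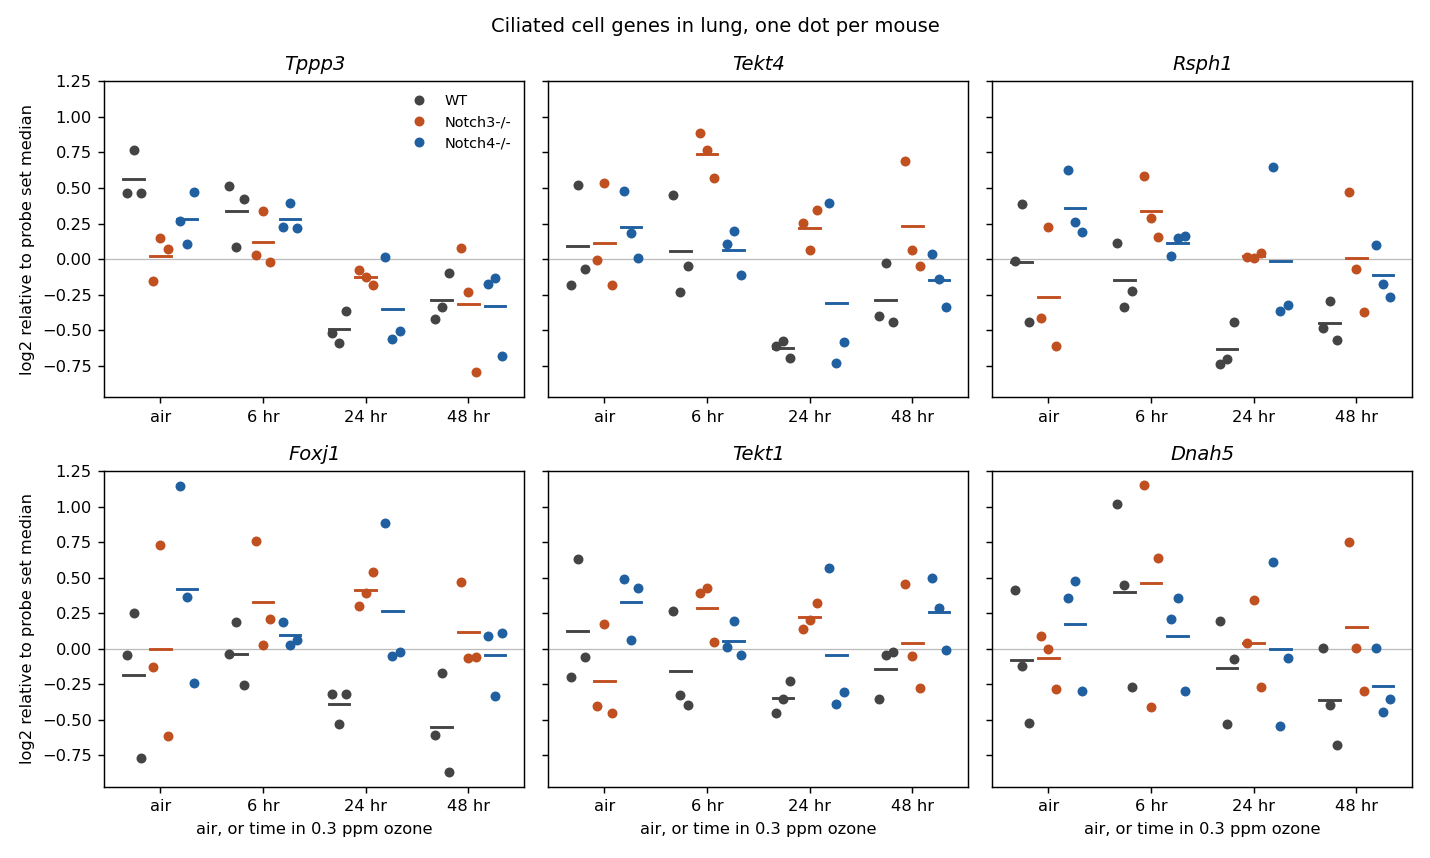
Values of 6 ciliated cell genes in lung RNA (vertical axis, log2, with 0 the median of the 36 mice) after air or after 6, 24 or 48 hr of 0.3 ppm ozone (horizontal axis). Each dot is 1 mouse, the bar is the mean of 3 mice, and color gives the genotype; the WT dots of Tppp3 are between 0.46 and 0.77 after air and between -0.59 and -0.37 after 24 hr.

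Tekt4 encodes a tektin, a filament protein inside the doublet microtubules. Its WT values were -0.18, 0.52 and -0.07 after air, 0.45, -0.23 and -0.05 after 6 hr and -0.61, -0.58 and -0.69 after 24 hr. The 24 hr mice lay below all the others, but the difference from air of -0.72 did not pass (SE 0.24, adjusted p = 0.43). In Notch3-/- mice Tekt4 was -0.01, 0.54 and -0.18 after air, 0.89, 0.77 and 0.57 after 6 hr, 0.25, 0.06 and 0.34 after 24 hr and 0.69, 0.07 and -0.05 after 48 hr. The 6 hr mice lay above all air and 24 hr mice and overlapped the 48 hr mice, and the difference of the 6 hr mice from air of 0.63 did not pass either (adjusted p = 0.3). Between 6 and 24 hr of ozone the mean over the genotypes fell by 0.52 (SE 0.14, adjusted p = 0.012), a call that held without each of the 18 arrays compared. Against air, the 24 hr difference over the genotypes was -0.38 (adjusted p = 0.11), and it passed without Notch4-/- ozone 24 hr replicate 1 (-0.50, adjusted p = 0.014), as did the difference within Notch4-/- mice (-0.88, adjusted p = 0.047). With all mice the latter was -0.53 (adjusted p = 0.25), and without replicate 2 of that group it was -0.32.

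Rsph1, a radial spoke head protein, and Tekt1, another tektin, were also below air in WT mice after 24 hr, but neither passed. WT Rsph1 was -0.01, 0.39 and -0.44 after air and -0.74, -0.71 and -0.44 after 24 hr, a difference of -0.61 (SE 0.24, adjusted p = 0.47) that was -0.40 without WT air replicate 2. Over the genotypes Rsph1 was lower at 24 than at 6 hr by a difference of -0.31 (adjusted p = 0.14), which passed without Notch4-/- ozone 24 hr replicate 1 (-0.42, adjusted p = 0.022). That mouse was the highest of its group for 11 of the 14 probe sets. WT Tekt1 was -0.20, 0.63 and -0.06 after air and -0.45, -0.36 and -0.23 after 24 hr, which did not overlap, and the difference of -0.47 did not pass (adjusted p = 0.52).

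Among the transcription factors, Foxj1 differed from air by 0.05, 0.02 and -0.24 at 6, 24 and 48 hr over the genotypes, with 95% intervals that held 0. The values of Foxj1 after air ran from -0.77 to 1.14 in the 9 mice. Rfx3 set 1 differed from air by 0.13 at 6 hr and by 0.00 at 24 hr, and set 2 by 0.12 and -0.09. At 24 against 6 hr the Rfx3 differences were -0.13 for set 1 and -0.21 for set 2 (adjusted p = 0.35 and 0.18). The latter passed without Notch4-/- ozone 24 hr replicate 1 (-0.28, adjusted p = 0.036) and was -0.13 without replicate 3 of that group. Dnah5 and Dnah9 are heavy chains of the outer dynein arms. Dnah5 had a mean over the genotypes of 0.01 after air, 0.32 after 6 hr and -0.03 after 24 hr, and its values after 6 hr ran from -0.41 to 1.15 in 9 mice, so that the groups overlapped and no difference passed. Dnah9 did not pass either, with set 2 at -0.27 and set 1 at 0.07 at 48 hr against air. Spag17 and Hydin, which belong to the central pair, did not pass in any comparison with air. Over the genotypes Hydin set 1 differed from air by 0.02 at 24 hr and -0.01 at 48 hr, and set 2 by -0.16 and -0.24 (adjusted p = 0.62 and 0.46). The largest difference of all member comparisons with air was in Spag17 set 1, at 1.26 in Notch3-/- mice after 24 hr (SE 0.54, adjusted p = 0.2), where the air mice lay at -0.66, -0.06 and -1.09 and the exposed mice at 1.05, 0.71 and 0.21. This difference of Spag17 set 1 passed in 2 of 11 other settings. Spag17 set 2 differed by 0.01 in the same comparison.

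In all, 2 of 126 pairs of a member probe set and an ozone comparison within a genotype were called, both of Tppp3, with 14 at an unadjusted p under 0.05, and 1 of the 14 probe sets was called at any time in any genotype where 6.59% of all probe sets were. Over the genotypes 4 of 70 were called. At 6 hr against air 0 of the 14 passed in limma, also at an unadjusted p under 0.05, with 2.9% of all probe sets called. At 24 hr against air 1 of 14 was lower (2.1% of all), at 48 hr 1 of 14 (3.96%), and at 24 against 6 hr 2 of 14 (6.51%). Between 48 and 24 hr 0 of 14 passed, also unadjusted, with 6.71% of all called. At 24 against 6 hr 13 of the 14 differences were below 0, with a median of -0.16 against 0.02 over all probe sets.

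**Figure D2:**
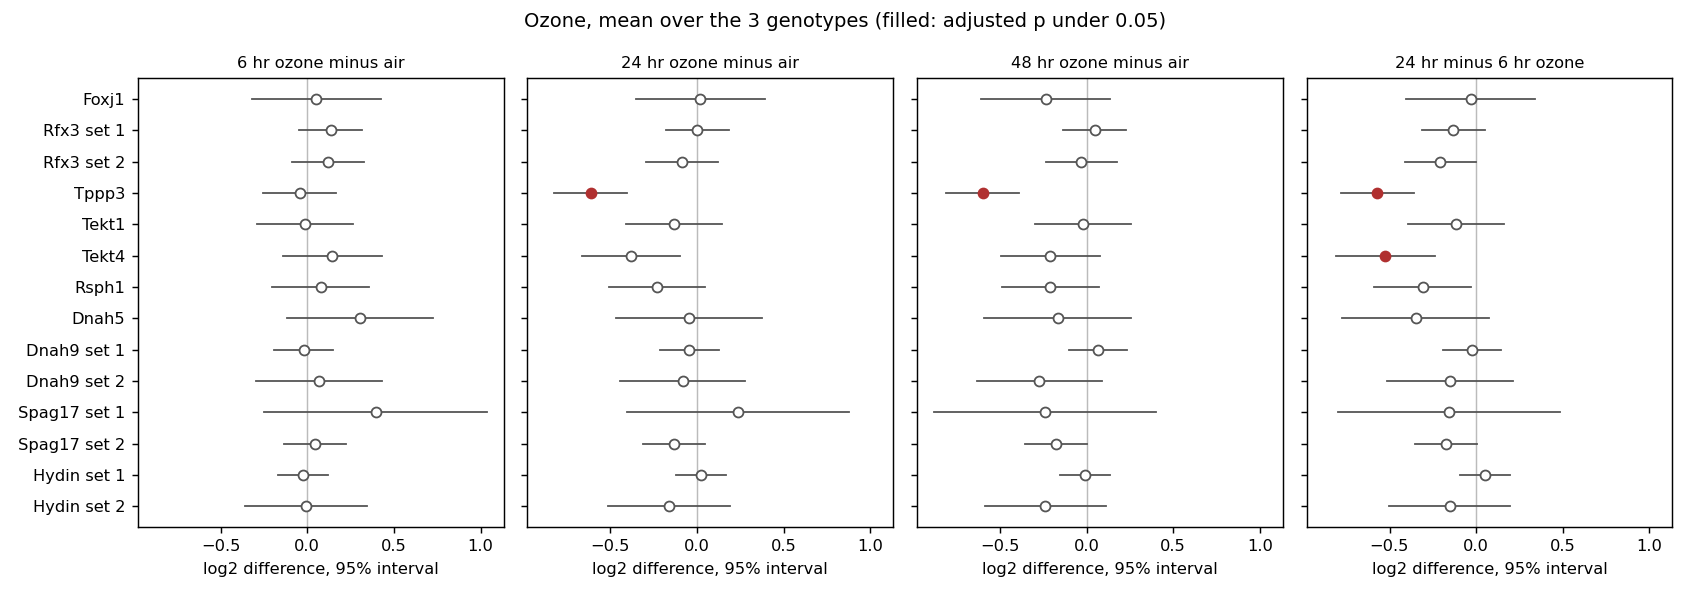
Differences of the 14 member probe sets with ozone, as the mean over the 3 genotypes (log2, horizontal axis, with 95% intervals), for 6, 24 and 48 hr against air and for 24 against 6 hr. Filled points passed an adjusted p of 0.05; these are Tppp3 in 3 panels and Tekt4 in the last.

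Other genes of the cilium were taken from 7 lists with 170 measured genes. At 24 against 6 hr of ozone, 31 of the 170 were lower and 1 was higher, where 6.6% of 18193 genes were called lower, and 131 had a difference below 0 (median -0.18 against 0.02 for all genes). By list, 12 of 54 other ciliated cell markers fell, 5 of 19 radial spoke and central pair genes, 5 of 21 genes of doublet microtubule proteins, 3 of 13 dynein subunits, 2 of 18 genes of dynein assembly and docking, 2 of 15 of the transcription and basal body programme and 2 of 30 of intraflagellar transport and the BBSome. The largest falls were Rsph14 (-0.67, adjusted p = 0.0012), a radial spoke protein, Dnaaf4 (-0.66, adjusted p = 0.0033), a factor that helps assemble dynein arms, Lrrc23 (-0.65, adjusted p = 0.002), also of the radial spokes, Meig1 (-0.65, adjusted p = 0.024) and Tekt2 (-0.62, adjusted p = 0.00045), a tektin. Tubb4b, a tubulin, was the gene that rose (0.34, adjusted p = 0.00022). The count of 31 was 68 without Notch4-/- ozone 24 hr replicate 1. It was 16 without replicate 3 and 18 without replicate 2 of the same group, 19 without Notch3-/- ozone 24 hr replicate 1, and 17 without WT ozone 6 hr replicate 1 or Notch3-/- ozone 6 hr replicate 1.

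Against air, 8 of the 170 were lower at 24 hr over the genotypes (2.56% of all genes) and 5 at 48 hr (4.34%), with 0 and 4 higher. Tekt2 was lower at both times, by -0.45 and -0.57, and so was Rsph3a, a radial spoke protein, by -0.53 and -0.40. Plk4, which drives the copying of centrioles and is also active in dividing cells, rose at 48 hr (0.58, adjusted p = 0.00042), where 8 of 9 dividing-cell genes were called higher. The part of dividing cells in the rise of Plk4 was not tested. The 24 hr count was 37 without Notch4-/- ozone 24 hr replicate 1, 17 after a further quantile normalization and between 3 and 5 without Notch4-/- air replicate 3, Notch4-/- ozone 24 hr replicate 2 or 3, WT air replicate 2, Notch3-/- air replicate 2 or Notch3-/- ozone 24 hr replicate 1. The 48 hr count was 3 without Notch3-/- ozone 48 hr replicate 3, WT air replicate 2, Notch4-/- ozone 48 hr replicate 1, Notch3-/- air replicate 2 or Notch4-/- air replicate 1, and also without Notch4-/- air replicates 1 and 2 together. In WT mice alone at 24 hr, 0 of the 170 passed in limma. At an unadjusted p under 0.05, 55 were lower and 1 was higher, and 146 of the differences were below 0. The matching shares of all genes were not counted, and the median over all probe sets was also below 0, at -0.02. Genes of these lists varied together over the same mice, so the counts are not of independent genes.

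Markers of club cells, the secretory cells of the small airways, moved beside these genes. At 24 against 6 hr 5 of 9 club cell genes were lower and 1 was higher, among them Cyp2f2 (-0.24, adjusted p = 0.01) and Scgb3a2 (-0.24, adjusted p = 0.0079), while Scgb1a1, the main secretory protein of club cells, was at -0.01 (adjusted p = 0.9). The mean of the club cell genes ran from -0.46 to 0.41 after 6 hr and from -0.72 to 0.36 after 24 hr. The mean of the cardiac muscle genes ran from -0.86 to 1.48 after 6 hr and from -1.81 to 0.86 after 24 hr. The part of club cells and of cardiac muscle in the cilium result was not tested.

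Between genotypes, averaged over air and the ozone times, Tekt4 was higher in Notch3-/- and Rsph1 was higher in Notch4-/- mice than in WT mice. Tekt4 had a median of 0.30 in the 12 Notch3-/- mice (-0.18 to 0.89), of 0.02 in the 12 Notch4-/- mice (-0.73 to 0.48) and of -0.21 in the 12 WT mice (-0.69 to 0.52). The groups overlapped, and the Notch3-/- mean was higher than that of WT by 0.52 (SE 0.12, adjusted p = 0.0062), or 1.43-fold. The call held without each of the 24 arrays compared and in all 9 other settings tried. Some of these settings could change little. Leaving out Notch4-/- air mice touches this comparison only through the shared spread, and an intensity trend has nothing to follow in centred values. The Notch4-/- mean of Tekt4 differed from WT by 0.15 (adjusted p = 0.56), and the difference between the knockout lines of 0.37 did not pass (adjusted p = 0.19). It passed without Notch4-/- ozone 24 hr replicate 1 (0.46, adjusted p = 0.024).

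Rsph1 had a median of 0.12 in Notch4-/- mice (-0.36 to 0.65), of 0.03 in Notch3-/- mice (-0.61 to 0.58) and of -0.39 in WT mice (-0.74 to 0.39). The Notch4-/- mean was higher than WT by 0.40 (SE 0.12, adjusted p = 0.042), or 1.32-fold, and the Notch3-/- mean by 0.34, which did not pass (adjusted p = 0.1). The Notch4-/- call was close to the threshold. It was lost without the Notch4-/- air replicates 1 and 2 together (0.36, adjusted p = 0.11). It held in 9 of the 24 fits without a single array, namely WT air replicate 2, ozone 6 hr replicate 1, ozone 24 hr replicate 3 and ozone 48 hr replicate 2 and Notch4-/- air replicates 2 and 3, ozone 24 hr replicates 2 and 3 and ozone 48 hr replicate 3, and was lost without each other array of the 2 lines, with adjusted p between 0.019 and 0.089 over the 24. The Notch3-/- difference passed without WT air replicate 2 (0.39, adjusted p = 0.047).

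Foxj1 was at a median of -0.29 in WT (-0.87 to 0.25), 0.25 in Notch3-/- (-0.61 to 0.76) and 0.08 in Notch4-/- mice (-0.34 to 1.14). Its differences from WT were of the size of that of Tekt4, at 0.50 and 0.47, but with an SE of 0.16, and neither passed (adjusted p = 0.057 and 0.073). The Notch3-/- difference passed without WT air replicate 2 (adjusted p = 0.033), WT ozone 48 hr replicate 2 (0.039), Notch3-/- air replicate 3 (0.021) or Notch3-/- ozone 6 hr replicate 2 (0.047). The Notch4-/- difference passed without Notch4-/- air replicate 3 (0.025) or WT air replicate 2 (0.045), and was 0.31 (adjusted p = 0.27) without Notch4-/- air replicates 1 and 2. Both Foxj1 differences also passed with array weights (adjusted p = 0.03 and 0.0076), among probe sets above the median SD (0.035 and 0.048) and with a block for the replicate number (0.029 and 0.041). The Notch3-/- difference passed with only the arrays compared (0.042), and the Notch4-/- difference after a further quantile normalization (0.041). Of 9 other settings, the Notch3-/- difference of Foxj1 passed in 5 and the Notch4-/- difference in 4. Tekt1 differed by 0.28 in Notch4-/- mice (adjusted p = 0.18), and Tppp3 by -0.11 in Notch3-/- and -0.06 in Notch4-/- mice (adjusted p = 0.63 and 0.78).

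Of the 14 member probe sets 1 was thus called higher in Notch3-/- mice (3.28% of all probe sets), 1 in Notch4-/- mice (2.87%) and 0 in either direction between the knockout lines (1.09%), the last with 1 at an unadjusted p under 0.05. Differences from WT were above 0 for 12 of the 14 in Notch3-/- and for 10 of the 14 in Notch4-/- mice, with medians of 0.11 and 0.06 against 0.00 for all probe sets. Within a single exposure 0 of 168 pairs of a probe set and a genotype comparison were called in limma, with 24 at an unadjusted p under 0.05, and 0 by Tukey's test, where 3.36% of all probe sets were called in any of these 12 comparisons. The largest by unadjusted p was Tekt4 after 24 hr of ozone, where the Notch3-/- mice lay at 0.25, 0.06 and 0.34 and the WT mice at -0.61, -0.58 and -0.69 (difference 0.84, SE 0.24, adjusted p = 0.08).

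**Figure D3:**
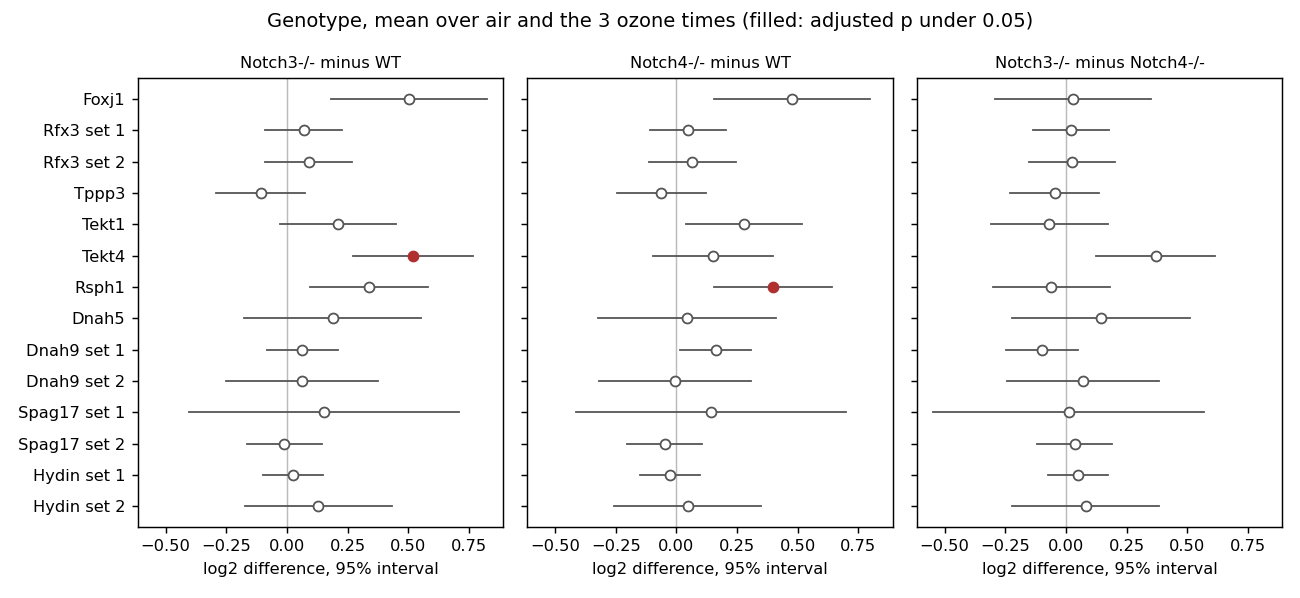
Differences between genotypes of the 14 member probe sets, averaged over air and the 3 ozone times (log2, horizontal axis, with 95% intervals). Filled points passed an adjusted p of 0.05, namely Tekt4 in Notch3-/- and Rsph1 in Notch4-/- mice, and most points against WT lie right of 0.

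Of the 170 other cilium genes, 14 were higher and 2 lower in Notch3-/- than in WT mice, and 29 were higher and 0 lower in Notch4-/- mice, where 4.39% and 3.62% of all genes were called higher. At an unadjusted p under 0.05, 5 were lower in Notch4-/- mice. The differences were above 0 for 134 and 138 of the 170, with a median of 0.14 in both lines against 0.01 and 0.00 for all genes. Both comparisons share the WT mice. The list of other ciliated cell markers held 11 of the 14 genes called higher in Notch3-/- and 14 of the 29 in Notch4-/- mice, from 54 measured. Hoatz, a protein of the motile cilium, was higher by 0.89 in Notch3-/- and 0.93 in Notch4-/- mice (adjusted p = 9e-05 and 6.7e-05). Tmem212 was higher by 0.88 and 0.85 (adjusted p = 0.00011 and 0.00019), Ccdc153 by 0.79 and 0.94 (adjusted p = 0.00079 and 0.00012) and Cdhr4, a cadherin of ciliated cells, by 0.80 and 0.58 (adjusted p = 0.0033 and 0.045). These differences exceeded those of the members that were called.

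The transcription and basal body list differed in count between the lines, with 0 of 15 in Notch3-/- and 4 of 15 in Notch4-/- mice. The difference between the lines passed for 3 of the 170 genes, Dnah8, Morn3 and Ift140, and for none of these 15. Deup1, which builds the deuterosomes on which ciliated cells make their many centrioles, was higher in Notch4-/- mice by 0.95 (SE 0.16, adjusted p = 0.00016). Ccno, a cyclin-like protein needed for that step, was higher by 0.60 (SE 0.12, adjusted p = 0.0012), beside Foxn4 (0.24, adjusted p = 0.02) and Cep152 (0.17, adjusted p = 0.012). Deup1 and Ccno kept their calls without each of the 24 arrays and in all 9 other settings. Among the intraflagellar transport genes Ift27 was higher in both lines, by 0.33 and 0.43. The count of 29 in Notch4-/- mice was 21 without the Notch4-/- air replicates 1 and 2 and between 18 and 19 without WT air replicate 1, WT air replicate 3, WT ozone 48 hr replicate 1 or Notch4-/- ozone 24 hr replicate 1. The count of 14 in Notch3-/- mice was 22 without WT air replicate 2.

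**Figure D4:**
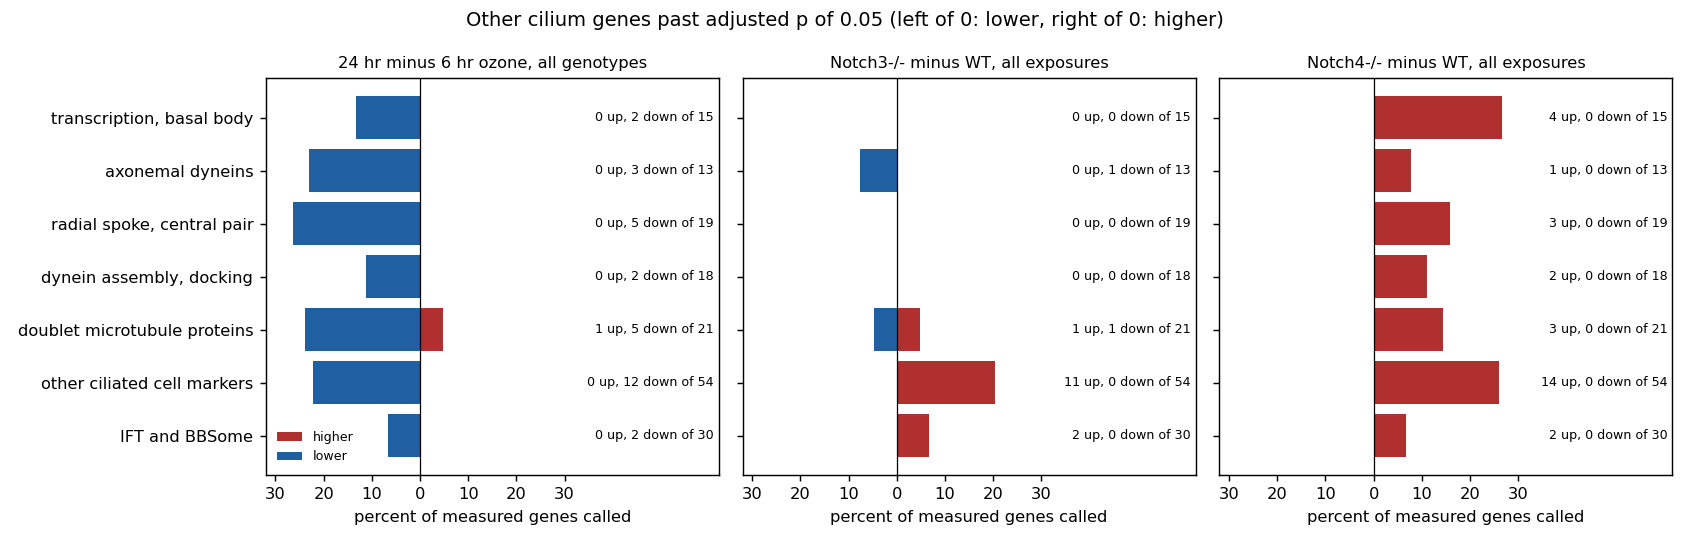
Share of the measured genes of 7 other cilium lists that passed an adjusted p of 0.05 (percent, horizontal axis; bars left of 0 are lower and bars right of 0 higher), at 24 against 6 hr of ozone over the genotypes and in each knockout line against WT over all exposures. The bars at 24 against 6 hr lie left of 0 in all 7 lists, with 1 higher gene in the doublet microtubule list, and those of Notch4-/- mice lie right of 0 in all 7.

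Rsph1, Tekt4, Notch3 and Notch4 all lie on chromosome 17, and genes close to a deleted gene can carry the alleles of the strain in which the deletion was made. In RefSeq order 11 protein-coding genes lie between Rsph1 and Notch3 and 94 between Rsph1 and Notch4, of 1059 on the chromosome, and 134 and 217 lie between Tekt4 and the same genes. The other members lie on other chromosomes. Of the other cilium genes called, Dnah8, a dynein heavy chain with 20 protein-coding genes between it and Notch3, differed in opposite directions, lower by -0.60 in Notch3-/- mice (adjusted p = 0.00019) and higher by 0.36 in Notch4-/- mice (adjusted p = 0.03), and the lines differed by -0.96 (SE 0.10, adjusted p = 3.7e-07). Ift140, on the same chromosome, was higher by 0.28 in Notch3-/- mice (adjusted p = 0.0011). The other 14 of the 16 genes called in Notch3-/- and 28 of the 29 in Notch4-/- mice lie elsewhere. Of all 170 other cilium genes measured, only 9 lie on chromosome 17, so most called genes would lie elsewhere in any case. The part of linked alleles in the values of Rsph1 and Tekt4 was not tested.

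Markers of other cells differed between the genotypes too. In Notch3-/- mice 7 of 8 genes listed for goblet cells, which secrete mucus, were higher than in WT mice. In Notch4-/- mice 6 of 8 were, and Clca1 led in both lines (4.49 and 2.90). All 5 neutrophil genes were higher in both lines, with S100a8 at 2.09 and 1.32. The mean of the goblet cell genes ran from -1.18 to 0.17 in WT, from -0.69 to 2.24 in Notch3-/- and from -0.61 to 1.74 in Notch4-/- mice, and that of the neutrophil genes from -0.98 to 0.10, from -0.18 to 1.78 and from -0.48 to 1.04. Of the 9 club cell genes 2 and 1 were higher, Scgb3a1 in both lines (2.74 and 2.19) and Chad in Notch3-/- mice (0.64), with Scgb1a1 at -0.01 in Notch3-/- mice (adjusted p = 0.87). Of the 9 dividing-cell genes 0 were called in Notch3-/- and 5 in Notch4-/- mice. The part of these cells in the values of the cilium genes was not tested.

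Whether the response to ozone differed between genotypes was tested as the difference of the differences from air. None of 84 pairs of a member probe set and a response comparison passed in limma, with 8 at an unadjusted p under 0.05 and 0.0155% of all probe sets called in any of the 6 comparisons. Tppp3 had the response at 24 hr that was less negative in Notch3-/- than in WT mice by 0.91 (SE 0.25, adjusted p = 0.42), of which 0.55 is the lower level of Notch3-/- mice in air (-0.15, 0.15 and 0.07 against 0.47, 0.77 and 0.46, without overlap, adjusted p = 0.3). That the fall of Tppp3 passed in WT and not in Notch3-/- mice therefore does not show that the lines differ.

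The mean of the 10 members was taken with 1 probe set for each gene, which for Rfx3, Dnah9, Spag17 and Hydin was set 1. It was highest in Notch3-/- mice after 6 hr of ozone, at 0.28 ± 0.24 (SD, n = 3), followed by Notch4-/- mice after air at 0.24 ± 0.18 and Notch3-/- mice after 24 hr at 0.14 ± 0.04. It was lowest in WT mice after 24 hr at -0.29 ± 0.06, and next in WT mice after 48 hr at -0.25 ± 0.08. The ranges of every pair of neighbours in the order of the 12 groups overlapped. WT mice after air were at -0.02 ± 0.28, with a spread wider than most differences between groups. The Notch4-/- air mice were at 0.41 in replicate 1, 0.27 in replicate 2 and 0.05 in replicate 3. Replicates 1 and 2 are those with intermediate Notch4 values.

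Some of the members varied together between the mice of a group, and others did not. As deviations from the group means over 36 mice, the correlations of all 91 pairs of the 14 probe sets ran from -0.47 to 0.91, with a median of 0.27. The sets of genes that follow were picked from these values. The correlations among Foxj1, Tekt1, Tekt4 and Rsph1 were 0.55 to 0.90, and among Dnah5, Dnah9 set 2, Hydin set 2 and Rfx3 set 2 they were 0.60 to 0.91. Tppp3 correlated with Tekt1, Tekt4 and Rsph1 (0.63 to 0.78) but with Foxj1 at 0.14, with Spag17 set 1 at -0.24 and with Rfx3 set 1 at -0.47, the lowest of all pairs. By contrast, pairs with Dnah9 set 1 or Hydin set 1 had correlations of -0.27 to 0.16, so these probe sets did not follow the other members. Spag17 sets 1 and 2 correlated with each other at 0.54. The points share arrays and RNA samples, and these values describe the mice only.

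**Figure D5:**
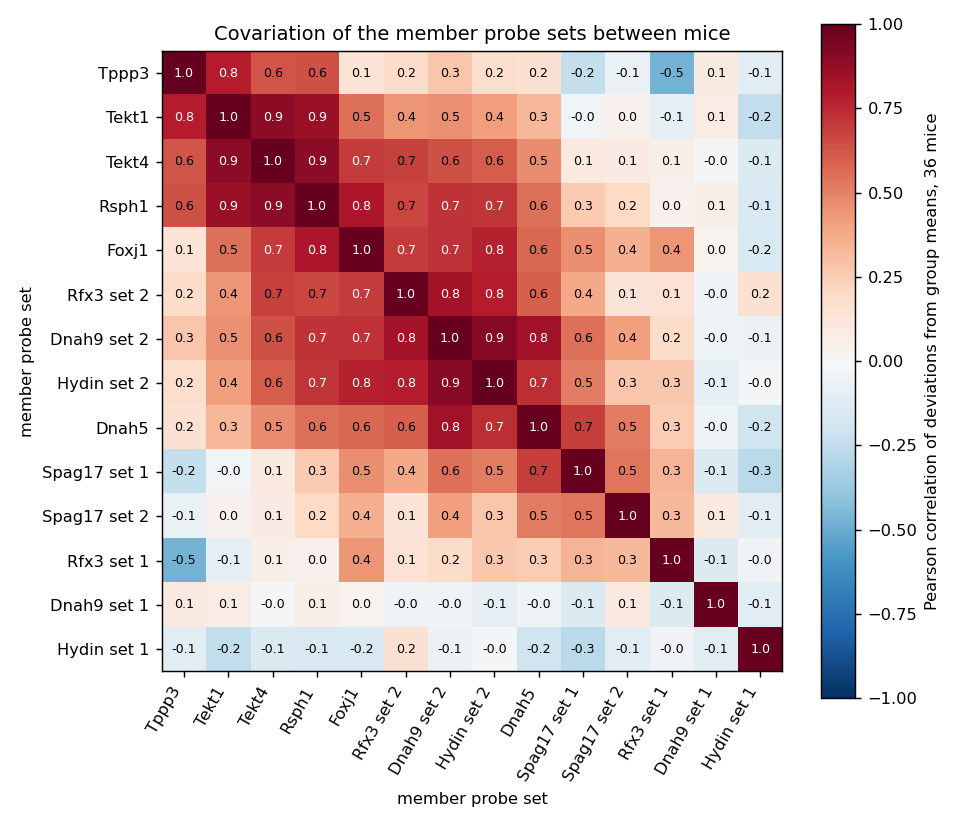
Pearson correlation between each 2 of the 14 member probe sets, from deviations of each mouse from its group mean (36 mice; both axes list the probe sets). High values join Foxj1, Tekt1, Tekt4 and Rsph1 (0.55 to 0.90) and Dnah5 with 1 probe set each of Dnah9, Hydin and Rfx3 (0.60 to 0.91), while the pairs of Dnah9 set 1 and Hydin set 1 lie between -0.27 and 0.16.

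The member mean thus holds Dnah9 set 1 and Hydin set 1. Of 18183 genes outside the members, those whose values over the 36 mice were most like the member mean were Ccdc113 and Cdhr3 (Pearson correlation 0.92 for both), Akap14, Cdhr4, Ccdc162 and Cfap126 (0.89 each) and Dnah2 and Rsph4a (0.88 each). Of these 8, all but Akap14 and Ccdc162 are in the cilium lists, as were 22 of the 50 most alike. The lists hold 170 of the 18183 genes. Without the 2 mice farthest from the median the correlation was 0.91 for Ccdc113 and 0.90 for Cdhr3.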

How the data were processed

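Total RNA of the left lung of 36 mice had been labelled and hybridized, each to its own Affymetrix mouse array. The deposited values are log2 intensities that the authors summarized with RMA in GeneSpring GX. Each probe set has a median of 0 over the 36 arrays, which the values show although the methods do not mention it. Replicates were mice, and precision is limited by how many arrays there are. Groups were taken from the sample labels. Control probe sets (64) were left out, and of the 45037 others 34945 had 1 gene symbol in the platform annotation, 932 had several and 9160 had none.

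Group means of the 12 groups were fitted with limma 3.58.1 (lmFit and eBayes) in R 4.3.3, with Benjamini-Hochberg adjustment over all 45037 probe sets in each of 35 comparisons and a threshold of 0.05. Comparisons over genotypes or exposures average the group differences, and all comparisons with air within a genotype share the same air mice. An ANOVA followed by Tukey's test, as in the authors' procedure, served as an alternative. Gene lists used 1 probe set for each gene, chosen by suffix and then by number. Members, lists and tests were chosen with earlier results of these data known. The genes named were all members, up to 5 rises and 5 falls of the largest size among other cilium genes that passed in a comparison, the 8 genes most like the member mean, Notch3 and Notch4, and marker genes beside a result; Foxn4, Cep152, Ift27, Dnah8, Ift140, Rsph3a and Plk4 were in part named after their values were seen. The marker lists were of club, goblet, basal, alveolar type 1, alveolar type 2 and dividing cells, neutrophils, skeletal and cardiac muscle and the Notch pathway. Alternatives were a replicate block, other array scalings, array weights, filters, other adjustments, other sets of arrays and each array left out. The limma fit was tested on simulated data with independent normal noise for each probe set. Of changes of 0.5 log2 it recovered 81% at 24 against 6 hr and 84% in Notch3-/- against WT mice over all exposures. It recovered 37% in WT mice at 24 hr against air and 5% for the Notch3-/- response difference at 24 hr. At 1 log2 the shares were 96%, 98%, 88% and 62%.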

Additional observations from a re-analysis of the deposited data

Results flagged for a closer look

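All member probe sets, ozone times and both knockout lines were searched for exposed mice on opposite sides of their air means. The search flagged 3 members, all at 24 hr in WT and Notch3-/- mice. Every exposed WT mouse lay below the mean of the WT air mice, and every exposed Notch3-/- mouse above the mean of its air mice. The share of all probe sets that meet this rule was not counted. The 3 flags from 84 pairs searched can therefore not be set against what mice without any effect would give. Single air mice overlapped the exposed mice for all 3 in Notch3-/- mice, and for Foxj1 but not Tekt1 and Rsph1 in WT mice. For Foxj1 the WT response was -0.20 and the Notch3-/- response 0.42, a difference of 0.62 (adjusted p = 0.63 in limma). For Tekt1 the responses were -0.47 and 0.44, a difference of 0.91 (adjusted p = 0.43). For Rsph1 they were -0.61 and 0.29, a difference of 0.90 (adjusted p = 0.45). None of these differences passed the test.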

How the results depend on the processing

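Directions were followed only for member differences that were called or had an unadjusted p under 0.05 in limma. Uncalled differences between genotypes at 1 exposure were not followed. No alternative reversed a direction among those followed, and the remaining differences, many close to 0, were not checked. Of the 126 ozone pairs within a genotype, 2 were called, against 9 with array weights, 1 with only the arrays compared, 0 by ANOVA with Tukey's test and 0 to 4 without 1 array (0 without WT air replicate 2, and 4 without Notch4-/- ozone 24 hr replicate 1 or Notch3-/- ozone 48 hr replicate 3). The 1 pair called with only the arrays compared was neither of the 2 Tppp3 pairs called in WT mice. An alternative chosen after seeing the data, Tukey's test within the 7898 probe sets that passed the ANOVA, again gave 2. By Tukey's test with adjustment, the WT differences of Tppp3 of -1.06 and -0.85 had adjusted p of 0.7 and 0.6. The 4 calls over genotypes were 4 to 7 without 1 array. The 2 calls over all exposures were 4 with array weights, 4 with probe sets above the median SD, 1 with adjustment over all comparisons and 1 to 5 without 1 array. At 1 exposure 0 pairs were called, against 1 after a further quantile normalization, 10 with array weights, 4 with only the arrays compared and 0 to 1 without 1 array. Response differences gave 0 calls, 1 with array weights and 0 without any 1 array. Of the 170 other cilium genes, array weights called 52 lower at 24 hr and 11 at 48 hr against air, and 60 at 24 against 6 hr. The SD over the probe sets of an array ran from 0.16 to 0.43, and was highest in Notch4-/- ozone 48 hr replicate 2. The cause of the higher counts with array weights was not tested.

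The labels give no shared litter, batch or day for mice with the same replicate number, and the replicate block was fitted as an alternative. Over 198 pairs of arrays with the same number the deviations correlated from -0.51 to 0.62 (median 0.07), with 89 over 0.1. Of the 36 arrays, 28 correlated more with their own number than with the others, a hint from the data and not from the labels. The paper states that the mice of its lavage fluid and PCR measurements were exposed in more than 1 group. The labels do not link such groups to the replicate numbers. With the replicate block 4 pairs over all exposures were called, the added ones being Foxj1 in Notch3-/- and Notch4-/- mice (adjusted p = 0.029 and 0.041), and 1 pair at 1 exposure. Since the values are centred, an intensity trend has nothing to follow. Whether a gene was present or absent cannot be read from them.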

Other observations

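Other marker lists were compared with the member mean over the 36 mice, as a description of arrays that share RNA samples. The mean of the 7 other cilium lists together correlated with it at 0.88. Single cilium lists ran from 0.42 (transcription and basal body programme) to 0.91 (intraflagellar transport and BBSome). The mean of the club cell genes correlated with the member mean at 0.84, of goblet cell genes at 0.69, of cardiac muscle genes at 0.67, of basal cell genes at 0.50 and of neutrophil genes at 0.32. The means of alveolar type 1 (-0.36), alveolar type 2 (-0.23), dividing cell (-0.27), skeletal muscle (-0.13) and Notch pathway genes (-0.27) lay below 0. At 24 against 6 hr of ozone 0 of 8 cardiac muscle genes were called, at a median of -0.80, 0 of 8 skeletal muscle genes and 0 of 7 alveolar type 2 genes. Between genotypes 3 of 15 Notch pathway genes were lower in Notch3-/- and 2 in Notch4-/- mice, a list that holds the deleted genes, 2 of 6 alveolar type 1 genes were lower in each line, and 0 of 6 basal cell genes were called.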
